A study of Homo sapiens with 5 samples.

Results

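Among the places that carried histone H3 monomethylated at lysine 4 (H3K4me1) in Vcap cells, 6718 lay more than 50 kb from any peak of histone H3 acetylated at lysine 27 (H3K27ac). They are called far regions here. Overlapping peaks of both H3K4me1 libraries were merged over chromosomes 1 to 22 and X, and 84838 merged regions holding a peak of each library were kept as replicated regions. The far regions were chosen by their distance to H3K27ac, as those whose nearer edge was more than 50 kb from every peak of either H3K27ac library, and they made up 7.92% of the replicated regions. That share and the distances follow from the rule and are given as a description. Of the other 78120 replicated regions, 46786 overlapped an H3K27ac peak and 31334 lay within 50 kb of one without overlapping it (near regions).

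Vcap is an established human prostate cancer line. All libraries came from fixed cells of that line for which no treatment is named. Their labels differ only in the antibody, which the input lacks, and in the replicate number. There were 2 libraries for H3K27ac, 2 for H3K4me1 and 1 input, which is not analysed here. No label says whether replicates came from separate cultures, so their spread may be technical.

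H3K4me1 is laid down largely by the methyltransferases KMT2C and KMT2D and is found at enhancers whether or not they are in use. The acetyltransferases p300 and CBP add H3K27ac, which accompanies enhancers and promoters in use. An enhancer with H3K4me1 and without H3K27ac is commonly described as primed, and such elements can gain acetylation when a cell receives a signal or differentiates. The peak lists hold positions only, so neither the height of a peak nor the sequencing depth is known, and no sign of gene activity was measured.

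The lists held 54763 and 64845 peaks for H3K27ac replicates 1 and 2, and 118231 and 125320 for H3K4me1 replicates 1 and 2. Positions are in hg19. Gene positions of that build were not at hand, so regions are named by coordinate, no gene is assigned, and the cell line was not checked against marker genes.

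Far regions were few for the room they had. The bases more than 50 kb from H3K27ac added up to 1189 Mb, which is 40.4% of the span between the outermost peaks. They held 5.65 replicated regions per Mb. The remaining 1758 Mb held 17.8 near regions per Mb, and 44.4 per Mb when regions overlapping H3K27ac were counted too. The density ratio was thus 0.127 against all other regions and 0.317 against near regions. The span includes 23 stretches of over 3 Mb, together 138.6 Mb, with no peak in any list. Without them the ratio to all other regions was 0.144. The number of far regions depends on which peaks are counted: with only H3K27ac peaks of at least 500 bp it was 12414, and with only H3K4me1 peaks of at least 500 bp it was 2314.

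Outside the regions that overlap H3K27ac, H3K4me1 thinned out steadily with distance from H3K27ac. The 46786 overlapping regions are left out of these densities, although they can extend into the same bases. The other replicated regions numbered 29.5 per Mb in bases up to 5 kb from an H3K27ac peak. There were 17.6 per Mb from 5 to 10 kb, 15.5 from 10 to 20 kb and 13.7 from 20 to 50 kb. Past the 50 kb limit they went on falling in number, from 10.4 per Mb at 50 to 100 kb to 7.02 at 100 to 200 kb, 2.85 at 200 to 500 kb and 0.483 beyond 500 kb. The drop across the 50 kb limit, from 13.7 to 10.4 per Mb, was smaller than that from the first class to the second.

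Each H3K4me1 library showed the same order when its own peaks were counted. Replicate 1 went from 14.9 peaks per Mb at 50 to 100 kb to 10.0 at 100 to 200 kb, 4.08 at 200 to 500 kb and 0.732 beyond 500 kb. Replicate 2 went from 19.1 to 12.7, 5.45 and 1.03 peaks per Mb over the same classes. The long stretches without any peak touch mainly the last class, which had 0.894 replicated regions per Mb without them.

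**Figure D1:**
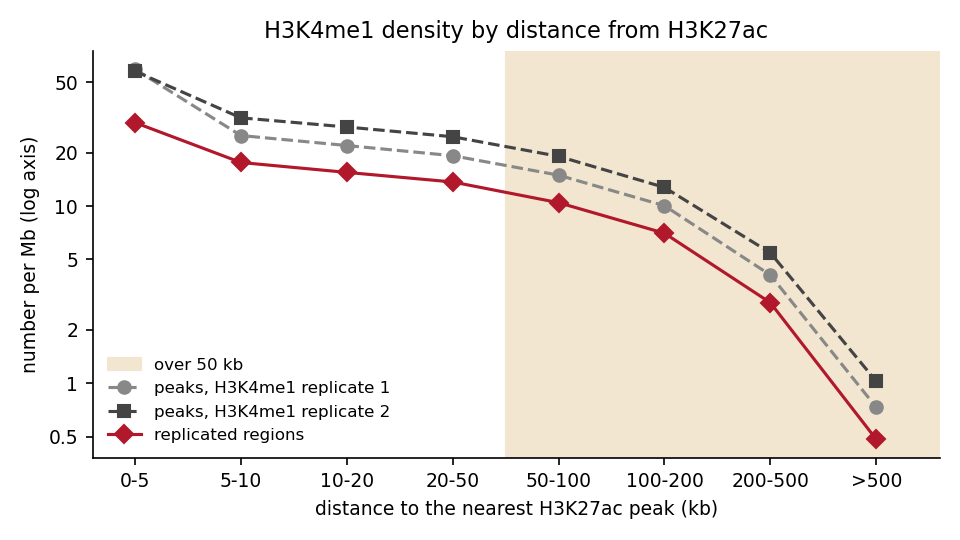
Number of H3K4me1 peaks (each library) and replicated regions per Mb, on a log axis, in classes of distance to the nearest H3K27ac peak in kb; the shaded part holds the far regions. Peaks and regions that overlap H3K27ac are left out. All 3 lines fall from left to right, and the replicated regions go from 29.5 per Mb at 0 to 5 kb to 0.483 per Mb beyond 500 kb.

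The median far region lay 89.5 kb from H3K27ac, with quartiles of 64.8 and 142.2 kb. Of the 6718 far regions, 2910 (43.3%) were more than 100 kb away, 126 more than 500 kb and 9 more than 1000 kb. Only 17 lay beyond the outermost H3K27ac peak of their chromosome, where a distance exists on 1 side alone. The nearest H3K27ac peak was present in both H3K27ac libraries for 71.0% of far regions, while 75.03% of all merged H3K27ac peaks were in both. For the rest of the far regions the distance is set by a peak of 1 library.

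Regions just past and just short of the limit had overlapping widths. The 5 members nearest to it were 50003 to 50029 bp from H3K27ac and 586, 3335, 751, 3888 and 852 bp wide. The 5 regions just under it were 49979 to 49995 bp away and 878, 1184, 693, 698 and 686 bp wide. The 3335 bp member, on chromosome 12 from 15788776 to 15792110, and the 3888 bp member, on chromosome 6 from 43814522 to 43818409, were the widest of these 10.

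The farthest members had no other replicated H3K4me1 region within 348 kb. The region on chromosome 13 from 88329934 to 88330328 lay 1836 kb from the nearest H3K27ac peak and 1760 kb from the nearest replicated H3K4me1 region. It was 395 bp wide and covered 381 bp in replicate 1 and 285 bp in replicate 2. Next came a region of 590 bp on chromosome 14 from 42370474 to 42371063, which was 1532 kb from H3K27ac. A region on chromosome 16 from 33401072 to 33402318 was wider, at 1247 bp, and lay 1515 kb from the H3K27ac peak on its left and 13252 kb from the one on its right. Regions on chromosome 10 from 56626765 to 56627183 (419 bp) and on chromosome 4 from 180336758 to 180337214 (457 bp) were 1462 and 1189 kb away. Each of the 5 had a peak in both libraries, and the libraries shared 61.4 to 75.6% of the bases either of them covered there.

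Far regions were narrower than the other replicated regions pooled. Their median width was 780 bp (quartiles 526 and 1159 bp) against 961 bp (624 and 1499 bp), a ratio of 0.812. Within libraries, the widest peak in a far region had a median of 420.5 bp in replicate 1 and 709 bp in replicate 2, against 547 and 894 bp in the other regions. Counting every peak of a library, replicated or not, peaks over 50 kb from H3K27ac had a median of 362 bp in replicate 1 and 458 bp elsewhere, and of 501 and 669 bp in replicate 2. These are ratios of 0.790 and 0.749 (mean 0.770 ± 0.0294, SD, n = 2). The shortfall was larger than the difference between libraries, but an exact two-sided sign permutation over 2 libraries gave p = 0.5, the smallest value it can give.

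The difference lay in the regions that overlap H3K27ac, whose median width was 1164 bp. Any overlap placed a region in that class, and a wider region has more bases that can overlap. Width and class are therefore not independent, and what this adds was not tested. Near regions had a median of 750 bp (quartiles 519 and 1091 bp), so far regions were 1.04 times as wide as near ones. By library the ratio of far to near peaks was 1.03 in replicate 1 (362 against 353 bp) and 1.01 in replicate 2 (501 against 498 bp), also with an exact p of 0.5. Outside the overlap, width changed little with distance. The median was 706 bp up to 5 kb, 786 bp at 5 to 10 kb, 780 bp at 10 to 20 kb, 773 bp at 20 to 50 kb, 793 bp at 50 to 100 kb and 800 bp at 100 to 200 kb. It was 716.5 bp at 200 to 500 kb and 680.5 bp for the 126 regions beyond 500 kb. The widest peak per region had medians of 398 and 376 bp there in replicate 1 and 638.5 and 599 bp in replicate 2. At 100 to 200 kb these were 419 and 723 bp, and up to 5 kb 399 and 632.5 bp. Over all peaks of replicate 1 the median was 359 bp at 100 to 200 kb, 359 bp at 200 to 500 kb and 320 bp beyond. In replicate 2 it was 512, 468 and 443 bp.

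**Figure D2:**
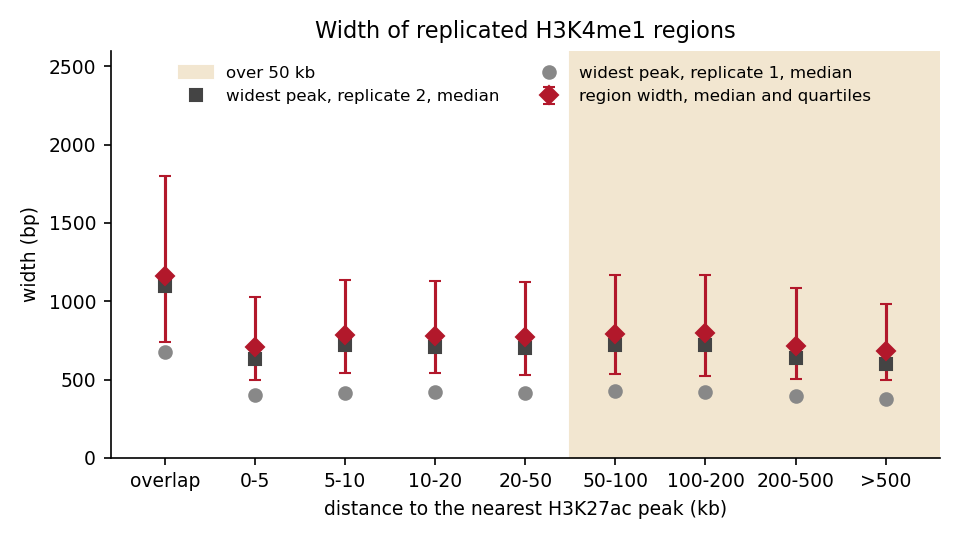
Width in bp of replicated H3K4me1 regions (red, median with quartiles) and median width of the widest peak per region in each library, for regions overlapping H3K27ac and in classes of distance from it in kb; the shaded part holds the far regions. The medians of regions without overlap stay between 680.5 and 800 bp, below the 1164 bp of regions that overlap H3K27ac.

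Very wide regions were rare among far and near regions alike. Of the far regions 242 (3.602%) exceeded 2000 bp, against 896 near regions (2.86%) and 9252 overlapping regions (19.8%). None of the far regions, 3 of the near regions and 470 of the overlapping regions exceeded 5000 bp. The widest replicated H3K4me1 region of all, at 20846 bp, overlapped H3K27ac.

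The widest far region was on chromosome 4 from 23854552 to 23859425, with 4874 bp. In replicate 2 it was a single peak over its whole length, and in replicate 1 it was 4 peaks covering 2078 bp. It lay 115.1 kb from H3K27ac on the right and 1336 kb on the left. The region of 4302 bp on chromosome 8 from 131771943 to 131776244 was more alike between libraries, covering 3254 bp in 3 peaks and 4119 bp in 1 peak, and had no other replicated region within 154 kb. The 4072 bp region on chromosome 17 from 53232388 to 53236459 again was 4 peaks (2015 bp) in replicate 1 and 1 peak in replicate 2. Regions on chromosome 18 from 13538520 to 13542582 (4063 bp) and chromosome 12 from 15749459 to 15753497 (4039 bp) shared 76.9 and 75.5% of their covered bases between libraries. All 5 were 1 peak in replicate 2 and 2 to 4 peaks in replicate 1.

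Replicate 1 was split more often than replicate 2 in far, near and overlapping regions, though in a minority of each. It had several peaks in 13.4% of far regions, 11.5% of near regions and 25.7% of overlapping regions, while replicate 2 had several in 1.21, 0.967 and 1.96%. At the median, replicate 2 covered 1.43 times as many bases of a far region as replicate 1, against 1.42 times in near and 1.31 times in overlapping regions. The smallest gap between peaks was 192 bp in H3K4me1 replicate 1 and 233 bp in replicate 2, so the lists were not joined over the same distance.

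Recurrence between libraries was lower for far H3K4me1 than for H3K4me1 on H3K27ac, and close to that of near H3K4me1. Of 14129 merged H3K4me1 regions more than 50 kb from H3K27ac, 47.5% were replicated, against 63.2% of the rest. Among regions that overlapped H3K27ac the share was 81.9%. It was 44.5% up to 5 kb from H3K27ac, 48.7 to 49.1% in the classes from 5 to 50 kb, 47.9% at 50 to 100 kb, 48.3% at 100 to 200 kb, 45.6% at 200 to 500 kb and 40.1% beyond 500 kb. The difference between far and near merged regions was 0.443 percentage points. Replication is part of the rule, so these shares are a description.

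The peaks that did not recur were narrow. Beyond 50 kb, 1870 merged regions came from replicate 1 alone, with a median of 263 bp, and 5541 from replicate 2 alone, with a median of 372 bp. Replicate 2 by itself had 12347 peaks there and replicate 1 had 9617. The number for replicate 2 is over 1.5 times that of the far regions and 9.85% of its peaks, but it counts every peak of that library, unmerged and with no need to recur. Within far regions the libraries shared 55.4% of the bases either covered, against 55.2% in near regions and 67.1% in overlapping regions. The widest peak per region had a Spearman's rho between libraries of 0.503 over 6718 far regions, 0.501 over near and 0.709 over overlapping regions. Regions are not independent replicates, and those with wide peaks have a larger range of widths.

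Far regions had a close H3K4me1 neighbour less often than near regions did. For 45.2% of them another replicated H3K4me1 region lay within 12500 bp, against 74.8% of near regions and 84.6% of overlapping ones. Neighbours of every class counted, and within 12500 bp a far region cannot have one that overlaps H3K27ac. Part of this contrast is therefore set by the rule. Whether most far regions had a neighbour within 12500 bp depended on the setting. The share was 58.7 and 59.6% among all far peaks of H3K4me1 replicates 2 and 1 taken singly. It was 50.4% with replicated H3K27ac regions only and 53.6% with H3K27ac peaks of at least 500 bp. The median gap to the nearest replicated region was 16071 bp for far, 4313 bp for near and 1376.5 bp for overlapping regions. Within 1 kb a neighbour was found for 20.7% of far and 26.2% of near regions, within 25 kb for 59.0 and 89.3%, and within 50 kb for 75.4 and 97.8%. The share with a neighbour within 12500 bp was 90.9% at 5 to 10 kb from H3K27ac, 63.6% at 10 to 20 kb and 49.0% at 20 to 50 kb. In the far classes it was 46.9% at 50 to 100 kb, 45.3% at 100 to 200 kb, 38.2% at 200 to 500 kb and 37.3% beyond 500 kb. Up to 5 kb from H3K27ac it was 90.4%. The near classes up to 20 kb thus stood furthest above the far classes, and the class at 20 to 50 kb stood close to them. The cause was not tested.

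Set against their own low density, far regions varied more from place to place than near ones. Over 6890 tiles of 100 kb lying wholly beyond the limit, outside the long peak-free stretches, the mean was 0.420 far regions per tile. The variance was 2.12 times the mean. Of these tiles 76.4% had none and the fullest had 9. Near regions over 11626 tiles wholly within 50 kb of H3K27ac had a mean of 1.91 and a variance of 1.56 times the mean. Regions overlapping H3K27ac were not counted there. The far tiles took in all distances beyond 50 kb, over which density fell. What these 2 points add to the difference was not tested.

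Chaining far regions within 12500 bp of each other gave 5028 groups. A single region made up 3806 of them, so that 56.7% of far regions stood alone. There were 909 pairs, 219 groups of 3, 57 of 4 and 37 of 5 or more, and the last held 209 regions (3.11%). Regions less than 1 kb apart counted as separate ones, and 20.7% of far regions had another replicated region within 1 kb. The group sizes thus depend on how peaks were split. Of the 3806 lone regions, 1441 (37.9%) had a region of 1 H3K4me1 library within 12500 bp, and 124 had a near region there. Members of groups of 5 or more had a median width of 873 bp against 786 bp for lone regions. The widest peak was 485 against 406 bp in replicate 1 and 836 against 697 bp in replicate 2. Pairs were no wider than lone regions, at 758.5 bp.

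**Figure D3:**
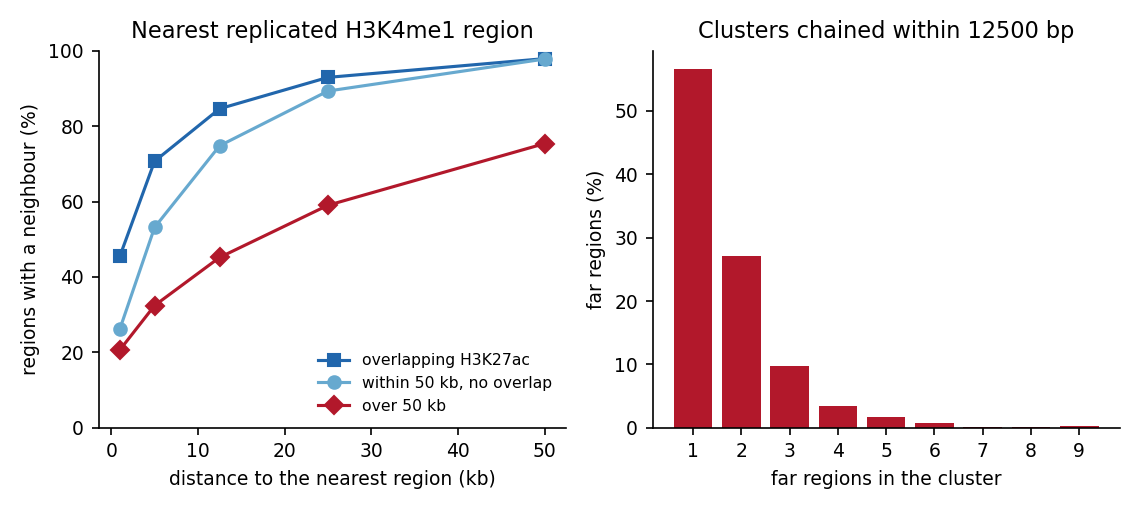
Left, percentage of replicated H3K4me1 regions with another one within 1 to 50 kb, for regions overlapping H3K27ac, near regions and far regions; right, percentage of far regions by the number of far regions in their group, chained within 12500 bp. The far regions lie lowest at every distance, and 56.7% of them stand alone.

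The largest groups held 9 far regions. On chromosome 2 from 67504217 to 67564246, 9 regions of 606 to 1991 bp were spread over 60.03 kb. They comprised 12 peaks covering 6.10 kb in replicate 1 and 10 peaks covering 9.05 kb in replicate 2, and came no closer than 59.8 kb to H3K27ac. On chromosome 3 from 31773955 to 31814200, 9 regions of 326 to 3599 bp lay in 40.2 kb. Coverage there was 10.6 kb in replicate 1 and 13.5 kb in replicate 2. The group of 8 on chromosome 21 from 39760203 to 39781291 was the tightest of the leading 5, with 12.8 kb of H3K4me1 in 21.1 kb, and lay 50.7 kb from H3K27ac, just past the limit. Groups of 7 lay on chromosome 7 from 69245175 to 69282129 and from 96115769 to 96142813, at least 73.5 and 78.9 kb from H3K27ac. Every one of these 5 groups had at least as many peaks in replicate 1 as in replicate 2 and less covered length there.

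Far regions can occur only in intervals of more than 100 kb between neighbouring H3K27ac peaks, or at chromosome ends. There were 5894 such intervals between peaks, with a median length of 167.2 kb, and 2615 of them (44.4%) held at least 1 far region. The share rose with length, from 19.7% of intervals of 100 to 150 kb to 49.6% at 150 to 200 kb, 62.8% at 200 to 300 kb, 70.6% at 300 to 500 kb and 75.4% at 500 to 1000 kb. It was 70.6% for the 245 intervals over 1000 kb, of which 72 held none. Per Mb of bases beyond the limit, the number was 12.47 in the shortest class, 12.8, 10.7, 8.78 and 5.11 in the following ones and 1.31 in the intervals over 1000 kb. Long H3K27ac-free intervals, which include the long stretches without any peak, were therefore poorer in H3K4me1 per base than short ones, although most held some.

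A few long intervals held many far regions. The interval on chromosome 6 from 54584358 to 56234552, 1650 kb without H3K27ac, held 18 far regions with 19.96 kb of H3K4me1. It had 28 peaks in replicate 1 and 35 in replicate 2. Its density was 11.6 per Mb beyond the limit, against 12.47 in intervals of 100 to 150 kb and 1.31 in those over 1000 kb. Intervals on chromosome 10 from 86367591 to 87339875 and on chromosome 20 from 15400514 to 16242670 held 17 each, or 19.5 and 22.9 per Mb beyond the limit. The interval on chromosome 1 from 55718952 to 56298988 held 16 in 580 kb and was the densest of the 5, at 33.3 per Mb. Another 16 lay on chromosome 9 from 118354946 to 119253094 at 20.05 per Mb. These densities exceed the 5.65 per Mb over all bases beyond the limit, as intervals picked for their number must.

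**Figure D4:**
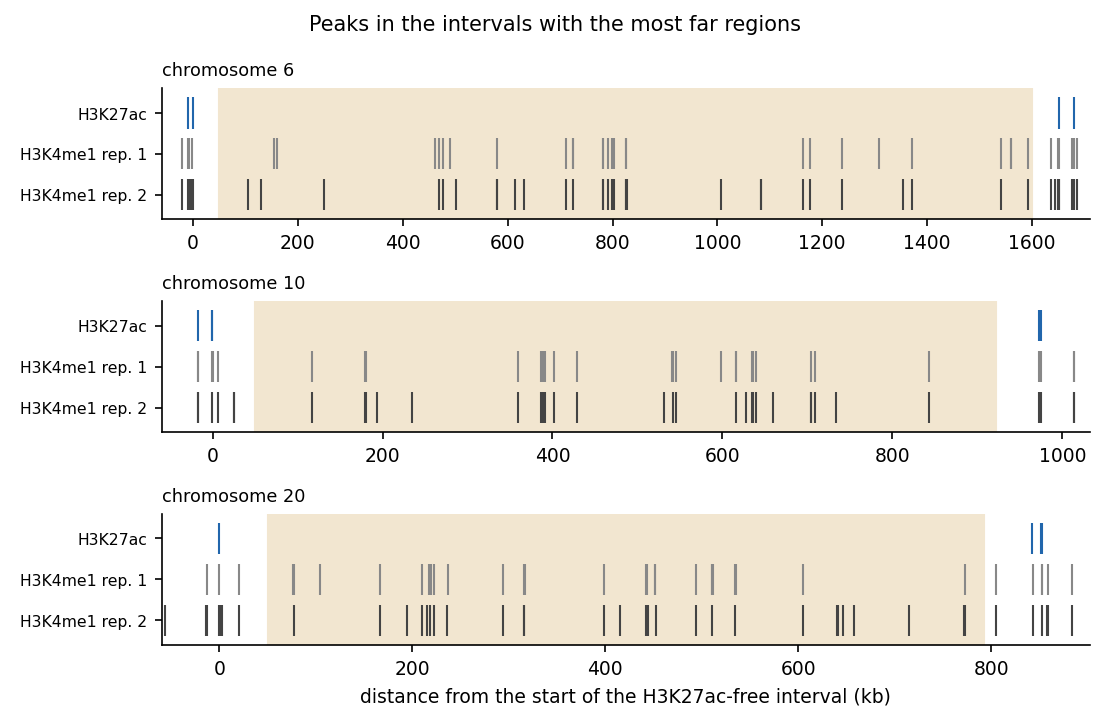
Positions of peaks in the 3 H3K27ac-free intervals with the most far regions, in kb from the start of the interval, with both H3K27ac libraries merged on the top row and the H3K4me1 libraries below; each line marks the middle of a peak and the shaded part lies more than 50 kb from H3K27ac. In both libraries the H3K4me1 peaks are unevenly placed, with long gaps between them. On chromosome 6, replicate 1 has none from 826.442 to 1163.36 kb and replicate 2 none from 827.301 to 1006.93 kb. The intervals hold 18, 17 and 17 far regions.

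Far regions occurred on every chromosome, and their share of replicated regions differed among chromosomes by over 4 times. It was highest on chromosome 13, with 237 of 2134 regions or 11.1% (exact 95% binomial interval 9.80 to 12.52%), followed by chromosome 18 with 10.3% (9.02 to 11.8%) and chromosome 4 with 10.2% (9.33 to 11.1%). It was lowest on chromosome 19, with 54 of 2130 or 2.54% (1.91 to 3.30%), then chromosome 22 with 4.10% (3.15 to 5.24%) and chromosome 17 with 5.22% (4.504 to 6.005%). The median of 23 chromosomes was 7.81%. The intervals cover counting error only and treat regions as independent.

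Chromosome 13 had the highest share and chromosome 19 the lowest in each library as well, while the chromosomes next to the top changed places: counting all peaks of H3K4me1 replicate 1, chromosome X came second with 11.6%, ahead of chromosomes 18 (10.6%) and 4 (10.4%). Counting all peaks of H3K4me1 replicate 1, chromosomes 13 and 19 had 12.0 and 2.66% beyond 50 kb, and counting those of replicate 2, 13.4 and 3.21%. With H3K27ac replicate 2 alone as the reference the shares were 12.9 and 2.77%, and with replicate 1 alone 12.6 and 3.005%. The difference between chromosomes was larger than that between libraries. Of the span of chromosome 13, 50.1% was more than 50 kb from H3K27ac, and of that of chromosome 19, 20.1%. Not all chromosomes followed that order. Chromosome 16 had 49.5% of its span beyond the limit but a share of far regions of 5.69%. Chromosome X had 63.2% of its span there and a share of 10.0%. Over the 23 chromosomes the share of far regions and the share of the span beyond the limit had a Spearman's rho of 0.703. Both rest on the same H3K27ac peaks, so this is a description.

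Per Mb of bases beyond the limit the order was a different one. Chromosomes 22, 20 and 15 had the highest values over the whole span, with 11.2, 10.1 and 10.1 far regions per Mb, while chromosome 13 had 4.94 and chromosome 19 had 4.55, both below the median of 6.46. Chromosome X was the sparsest, with 115 far regions in 98.1 Mb or 1.17 per Mb, and chromosome 16 followed with 1.95. Those chromosomes were also sparse in near regions, with 6.51 and 10.8 per Mb against a median of 18.1. Far and near densities had a rho of 0.697 over chromosomes. Leaving out stretches of over 3 Mb without peaks changed the order at the top, to chromosomes 20 and 17 with 12.51 and 11.8 per Mb, followed by chromosomes 22, 21 and 15 with 11.2, 10.6 and 10.1. Chromosomes 13 and 19 then had 5.44 and 6.75 per Mb, and chromosomes X and 16 were still the sparsest, with 1.27 and 3.45. Far regions of chromosome X also had the lowest median width, 618 bp, and near regions there had 588.5 bp. The highest median among far regions was 923 bp, on chromosome 21, where near regions had 853 bp. Chromosome 19 was almost level, with 922.5 bp over 54 far regions, but near regions there had 691.5 bp. The copy number of the chromosomes was not measured, and its part in these differences was not tested.

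**Figure D5:**
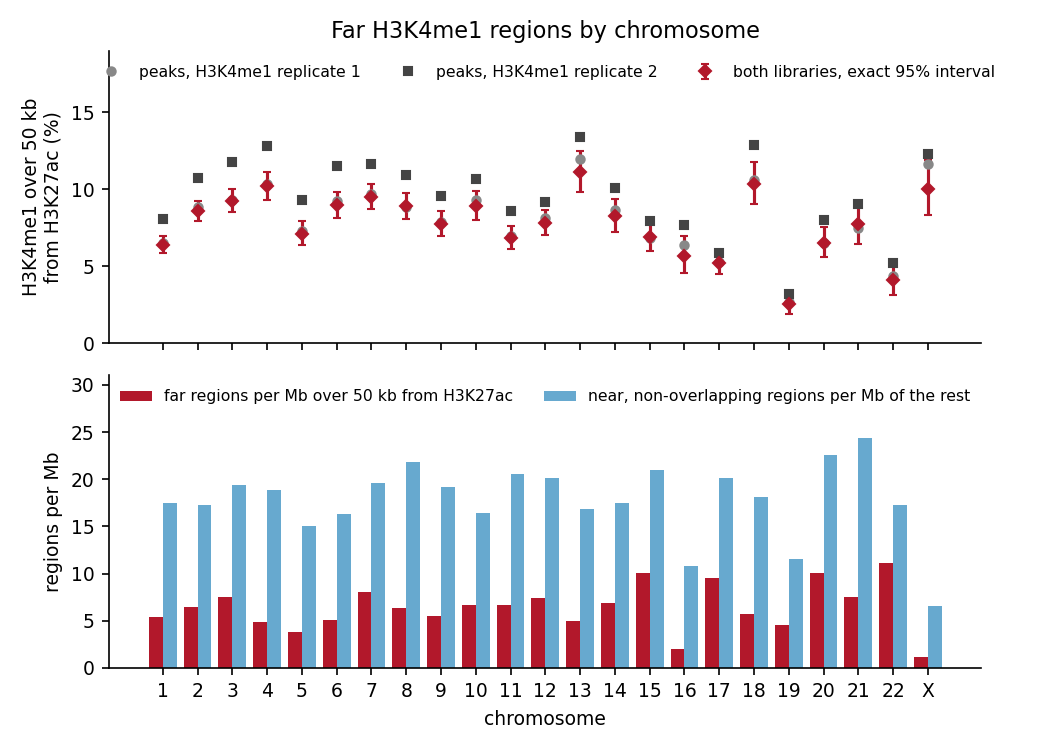
Top, percentage of H3K4me1 more than 50 kb from H3K27ac by chromosome, for replicated regions (red, with exact 95% intervals) and for the peaks of each library; bottom, far regions per Mb of bases beyond 50 kb and near regions per Mb of the rest. Chromosome 13 has the highest share (11.1%) and chromosome 19 the lowest (2.54%), whereas chromosome X has the lowest density (1.17 per Mb).

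Along chromosomes the far regions were spread widely. Of 620 windows of 5 Mb, 567 held at least 1, with a median of 11, and 152 windows (24.5%) were enough to hold 50% of them. The 5 fullest windows held 197 (2.93%). The first, on chromosome 9 from 80000001 to 85000000, had 41 far regions among 169 replicated ones (24.3%), with 53 far peaks in replicate 1 and 67 in replicate 2. The window on chromosome 11 from 80000001 to 85000000 had 40, and that on chromosome 7 from 65000001 to 70000000 had 39, among them a group of 7 named above. The window on chromosome 21 from 35000001 to 40000000 also had 39, but in only 1.104 Mb beyond the limit, which gave it 35.3 per Mb, the highest density of these 5. It holds the group of 8. The window on chromosome 8 from 105000001 to 110000000 had 38, with 43 far peaks in replicate 1 and 62 in replicate 2, and a window on chromosome 13 from 105000001 to 110000000 had as many.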

How the data were processed

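Peaks of H3K27ac and H3K4me1 were mapped by chromatin immunoprecipitation with sequencing. Per the submitters' processing notes, bcl2fastq 2.17, Trimmomatic 0.33, Bowtie 1.1.2 and MACS2 2.1.0 were used with hg19; which tool did what, the threshold and the control are not stated there. The authors deposited 1 list per library, not pooled, with 4 columns for chromosome, start, end and name. The deposited values are thus positions in bp, with no height or score, and depth is unknown. Each list has its own smallest width and gap, in which lists differ.

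Lists were read with Python 3.11.15 (pandas 2.3.3, scipy 1.17.1). Distances run from edge to edge, an overlap of 1 bp counted as shared, and positions are counted from 1. Code was tested on simulated data. The members, comparisons and distances were chosen with earlier results of these data known. The regions named are the 5 widest, 5 farthest, 5 on each side of the limit, 5 largest groups, 5 fullest intervals and windows, and the 3 chromosomes at each end of the share; chromosomes named for density, width or sparse H3K4me1, and the comparison with near regions, were added once values had been seen. The RefSeq tables at hand belong to GRCh38 and were not used. Alternatives changed the peaks, the overlap, the limit, the neighbour distance, the chromosomes and the libraries.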

Additional observations from a re-analysis of the deposited data

Results flagged for a closer look

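Chromosome Y was outside the rule and entered no comparison. It held 28 replicated H3K4me1 regions more than 50 kb from H3K27ac, out of 215 replicated there (13.0%). The number is listed because it comes from data that no comparison used, and nothing is read from its size.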

How the results depend on the processing

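Values changed with the settings more than directions did. The number of far regions, their share and their share with a neighbour cannot be negative, so these could not change sign. Over 9 results and 100 alternatives, 31 shifted less than the SD of the H3K4me1 libraries (for the number of far regions, stayed within 1.5 times), 66 moved further and 3 changed sign. For the width ratio the SD was 0.0172, taken from the widest peak per region in each library. It is smaller than the 0.0294 given above for all peaks, so more settings counted as moved. The spread is over 2 libraries only, and for shared bases there was none, so any move counted. Lists without scores allowed no stricter threshold, and a minimum width of 500 bp stood in for it; depth is unknown, so what it limits was not tested.

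The 3 changes of sign came from setting far against near regions alone, a comparison chosen after seeing the data. The width ratio then was 1.04, and the differences in the share replicated and in shared bases were 0.443 and 0.258 points, against -15.6 and -8.19 points with all other regions. Against near regions the density ratio was 0.317 and the difference in neighbours -29.6 points.

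Leaving out 1 library at a time (without an H3K4me1 library, every peak of the other counted, unmerged and with no need to recur) gave 7831 to 12347 far regions, shares of 8.13 to 9.85%, width ratios of 0.749 to 0.816 and density ratios of 0.131 to 0.162. Neighbours were found for 47.5 to 59.6% of far regions, a difference of -33.5 to -28.7 points. Chromosome 13 exceeded chromosome 19 by 9.31 to 10.2 points, against 8.57 with all libraries.

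With H3K27ac peaks of at least 500 bp there were 12414 far regions (14.6%), a width ratio of 0.830, a density ratio of 0.183 and neighbours for 53.6% (-28.4 points). With H3K4me1 peaks of at least 500 bp these were 2314 (5.42%), 0.847, 0.0847 and 26.1% (-40.01 points). A limit of 20 kb gave 14615 (17.2%), 0.785 and 47.3% (-37.0 points), and one of 100 kb 2910 (3.43%), a density ratio of 0.0914 and 43.0% (-36.2 points), as a looser or stricter limit must move the number; shared bases differed by -8.88 and -7.58 points. Replicated H3K27ac regions only gave 11.5%, a density ratio of 0.159 and neighbours for 50.4% (-31.0 points). Neighbours were found for 44.3% (-35.8 points) when peaks had to overlap by 50% of the shorter one, 43.6% with a common minimum width and joining distance, and 32.4% (-31.2 points) within 5 kb or 59.0% (-32.5 points) within 25 kb; autosomes gave -35.75 points. Width measured as bases in both libraries, or as the widest peak of replicate 1 or 2, gave ratios of 0.710, 0.769 and 0.793. Where not stated, the cause was not tested.

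Between the marks, differences of replicate 1 from replicate 2 in peaks per 100 kb had r = -0.0524 over 30360 windows. No label pairs them, so they were not treated as paired; whether same-numbered libraries share a culture or batch is not known. A replicate block, comparing same-numbered lists and averaging, gave 12836.5 far peaks (10.5%), a width ratio of 0.779, a density ratio of 0.160 and neighbours for 61.2% (-27.1 points).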
